A study of Homo sapiens with 48 samples.

Results

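The genes described here are 30 transcriptional targets of p53, followed in 8 human bladder cancer cell lines treated with an EZH2 inhibitor. They are MDM2, BAX, BBC3, PMAIP1, GDF15, TP53I3, ZMAT3, RRM2B, SESN1, BTG2, FAS, TNFRSF10A, TNFRSF10B, XPC, DDB2, FDXR, GADD45A, PLK2, PLK3, TIGAR, CCNG1, PHLDA3, AEN, TP53INP1, SPATA18, POLH, TRIAP1, PPM1D, APAF1 and PERP. The members were picked by symbol from the gene count table, and all 30 were found among its 35535 genes. Cells of T24, HT1197, HT1376, SW780, TCCSUP, KU1919, VMCUB and 639V received 250 nM CPI-0209 for 4 days, and the vehicle DMSO served as control. Each of the 16 groups had 3 RNA sequencing libraries, 48 in all. Every line was 1 established line grown in 1 medium, and some lines shared a medium. Between lines in different media, the effects of line and medium on a vehicle level cannot be told apart. MEM was used for HT1197, HT1376 and TCCSUP, DMEM for SW780, VMCUB and 639V, RPMI1640 for KU1919 and McCoy's 5A for T24.

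The tumour suppressor p53 is a transcription factor that is stabilised by DNA damage and other stress. It binds a response element built of 2 copies of a decamer half-site, near or inside its target genes. Its targets stop the cell cycle, repair DNA, shift metabolism, or kill the cell through mitochondria or death receptors, and some of them, with MDM2 first, return to p53 and shut it off. EZH2 is the methyltransferase of Polycomb repressive complex PRC2, which places a repressive methyl mark on histone H3. Bladder cancers often carry changes in the p53 pathway.

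Promoter sequences from RefSeq (GRCh38.p14, 250 bases before to 50 bases after each gene start) were available for 24 of the 30 members, with 35 start sites. No promoter was used for GADD45A, PHLDA3, RRM2B, TNFRSF10A, TNFRSF10B and TP53INP1. Windows were searched on both strands for the p53 consensus decamer and for the full response element, 2 decamers with a spacer of 0 to 13 bases. The decamer stood in 6 of 35 member promoters (17.1%), beside 2329 of 35116 promoters of all genes (6.63%). A full element with 0 mismatches stood in 1 member promoter, that of DDB2, and in 10 of all promoters (0.0285%). With up to 2 mismatches it stood in 10 of 35 member promoters (28.6%), beside 2747 of all promoters (7.82%). The 6 windows below are for members whose levels are described later, and the pairs among them have a spacer of 0 or 1. Pairs at CCNG1, FDXR and other starts of FAS and SESN1 had spacers of 9 to 11 bases and are not printed. Capitals mark the matched decamers, given 5′ to 3′ along the gene's strand. DDB2 lies at chr11:47214975-47215003 (plus strand, 0 mismatches), MDM2 at chr12:68808918-68808947 (plus, 2 mismatches), FAS at chr10:88991304-88991333 (plus, 2 mismatches), AEN at chr15:88621301-88621330 (plus, 2 mismatches), SESN1 at chr6:109009018-109009047 (minus, 1 decamer) and PLK2 at chr5:58460199-58460228 (minus, 1 decamer).
DDB2: gtttGAACAAGCCCtGGGCATGTTTggcg
MDM2: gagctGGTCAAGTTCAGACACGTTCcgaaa
FAS: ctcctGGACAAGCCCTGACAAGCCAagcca
AEN: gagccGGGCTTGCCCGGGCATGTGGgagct
SESN1: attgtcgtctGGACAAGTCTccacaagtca
PLK2: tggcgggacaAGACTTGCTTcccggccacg
A match describes these letters, and a window without one says nothing about binding elsewhere in the gene. The decamers of DDB2, MDM2, FAS and AEN stood in pairs, and those of SESN1 and PLK2 shown here alone. At another start of SESN1 a pair with 2 mismatches stood at chr6:109095058-109095088.

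Library totals ranged from 26481418 to 50916911 counts (median 41665645), and mitochondrial genes held 1.75% to 6.18% of them. Levels are given as CPM, in which counts are divided by the library size after TMM scaling. No pair of replicates was as alike as 1 library counted again (chi-square per degree of freedom 2.133 to 125.6). Within their groups, CPI-0209 replicate 1 stood apart in KU1919, all pairs of DMSO libraries differed widely in VMCUB, and CPI-0209 replicate 3 and DMSO replicate 2 stood apart in T24. DMSO replicate 1 stood less far apart in TCCSUP (25.24 and 29.38 against 5.499 for the other pair), where its mitochondrial share was 1.75%, against 3.48% and 3.68% in the other DMSO libraries, and in HT1376 (16.66 and 25.54 against 4.147). The labels do not say whether replicates came from different cultures, and the spread that p-values measure may thus be technical. Of 10 epithelial and urothelial markers, 7 to 10 had at least 1 CPM in every group, and their summed level was lowest in TCCSUP and 639V. Among them, KRT5, a basal keratin, had 1.42, 2.04 and 1.29 CPM in the CPI-0209 libraries of T24, against 69.1, 21.6 and 0.8825 CPM in the DMSO libraries, and its part in the T24 results was not tested. Fibroblast markers summed to 11176 to 11649 CPM in TCCSUP with CPI-0209 and 7554 to 8901 CPM with DMSO, and to at most 250.02 CPM in the other lines. Leukocyte markers summed to at most 105.4 CPM and endothelial markers to at most 63.4 CPM in any library. For 13 members, exons overlap those of another gene (12 on the opposite strand). These are MDM2, BBC3, TP53I3, SESN1, FAS, TNFRSF10A, TNFRSF10B, XPC, PLK3, TIGAR, PHLDA3, POLH and APAF1, and their counts are uncertain to that extent.

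In vehicle-treated cells the p53 targets were set at widely different levels from line to line, and HT1197 held the highest mean for 17 of the 30 and the lowest for 0. That line was highest for 15.6% and lowest for 16.4% of all 18643 genes tested. Scaled by library totals, HT1197 was highest for 14 members (10.2% of all genes), and by RLE size factors for 18. At the other end, 639V held the lowest level of 13 members, against 13.4% of all genes. HT1376 was highest for 6 members, SW780 for 3, T24 for 2, and 639V and VMCUB for 1 each. All 30 members differed between lines (edgeR F test, adjusted p at most 1.11e-09), as did 97.5% of all genes tested. The highest line stood above the lowest by a median factor of 8.41 over the members, and by more than 10-fold for 13 of them. These factors were not computed for all genes, so whether the members' spread is unusual was not tested. In bulk RNA, fewer cells that express a gene and less RNA per cell cannot be told apart.

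MDM2, the ubiquitin ligase that marks p53 for destruction, had 606 ± 30.5 CPM in HT1197 (SD, n = 3, as for the vehicle means below). SW780 followed with 159.6 ± 6.702 CPM, and VMCUB was last with 27.8 ± 0.6203 CPM. DDB2, which recognises ultraviolet damage in DNA, ran in a like order at the top, with 223 ± 9.13 CPM in HT1197, 121 ± 2.61 CPM in SW780 and 14.5 ± 0.423 CPM in 639V. PHLDA3, an inhibitor of AKT signalling, spanned 196 ± 12.95 CPM in HT1197 to 5.45 ± 0.338 CPM in 639V. HT1197 was thus far above the rest for MDM2, and 639V far below for PHLDA3.

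GDF15, a secreted stress cytokine, was highest in HT1376 with 640.1 ± 67.02 CPM, then in HT1197 with 250.4 ± 20.8 CPM, and lowest in 639V with 1.07 ± 0.218 CPM. PERP, a desmosome-associated protein with a role in apoptosis, had 1297 ± 51.9 CPM in HT1376, 1143 ± 18.7 CPM in HT1197 and 61.1 ± 0.878 CPM in 639V. BTG2, an antiproliferative factor, was led by SW780 with 165 ± 1.54 CPM, and was lowest in T24 with 4.18 ± 0.448 CPM. These 3 members show that no single line led the whole set. CCNG1 and TP53I3 varied least. CCNG1 ran only from 55.2 ± 0.913 CPM in HT1376 to 166 ± 33.4 CPM in T24, and TP53I3 from 15.4 ± 1.02 CPM in KU1919 to 40.4 ± 2.63 CPM in 639V. SPATA18 was near the limit of detection in several lines, with 2, 0 and 3 counts in the DMSO libraries of 639V and 1382, 1331 and 1311 counts in those of HT1197.

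Per kilobase of exon, which lets genes be compared with each other, PERP was the most abundant member in HT1197 in vehicle (266 CPM per kb), ahead of GADD45A (192). GDF15 (307 CPM per kb) and PERP (302) led in HT1376, within 1 SD of each other. SPATA18 was the least abundant member in 639V (0.00834 CPM per kb).

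**Figure D1:**
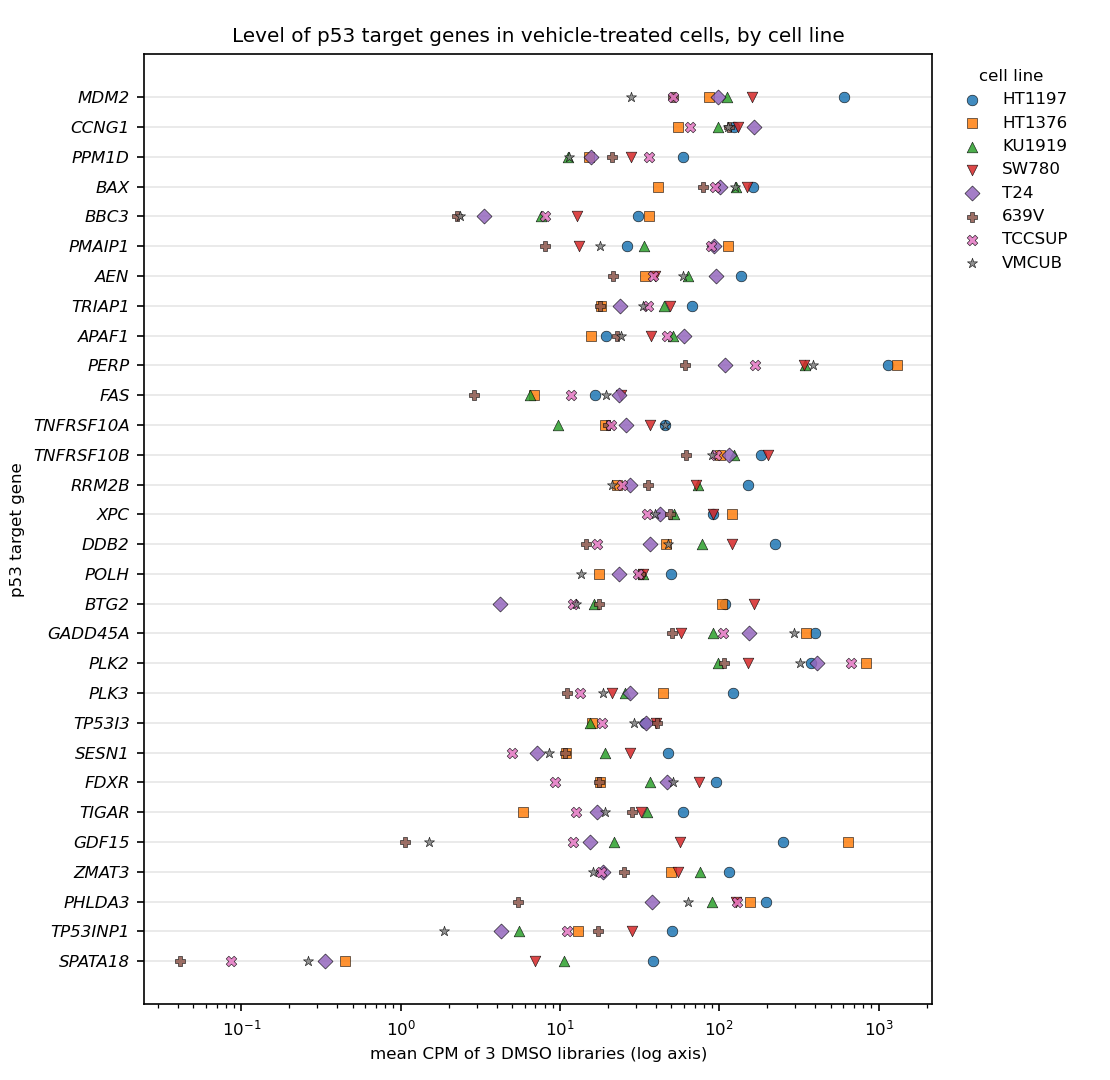
Mean CPM (log axis) of 3 DMSO libraries for each p53 target gene (rows), with 1 marker per cell line. HT1197 is the highest marker for 17 of the 30 genes, and 639V the lowest for 13.

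CPI-0209 moved single p53 targets in every line, yet not as a block and not in the same direction across lines. The 6 libraries of a line were fitted by themselves, CPI-0209 over DMSO, and a gene is called higher or lower at an adjusted p below 0.05 in edgeR's quasi-likelihood test over all genes tested. Of 238 tested pairs of member and line, 93 were called, 46 higher and 47 lower, and 5 of the 93 were changes of at least 2-fold. When each library was left out in turn, 61 of the 93 calls held in every fit and 32 were lost in at least 1. Of members, "rose" and "fell" are written below where a call held in all of those fits, and "was called" where it did not or where lines of both kinds are counted together. The counts of members by line stand beside the share of all tested genes called in that direction.

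HT1197 had 4 members higher and 3 lower, 13.3% and 10.0% of 30, against 11.8% and 7.8% of all genes (19.6% in either direction). HT1376 had 9 higher and 7 lower, 30% and 23.3%, against 23.7% and 16% of all genes (39.7%). KU1919 had 7 higher and 0 lower, 23.3% and 0%, against 9.3% and 2.4% of all genes (11.7%). SW780 had 8 higher and 12 lower, 26.7% and 40.0%, against 30.8% and 30.3% of all genes (61.1%). The members' shares were thus close to those of all genes in HT1197. For KU1919, 1 member was lower at an unadjusted p below 0.05 in edgeR, and DESeq2 called 0 lower (4.27% of all genes).

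T24 had 3 members higher and 1 lower, 10.0% and 3.3%, against 9.37% and 0.93% of all genes (10.3%). In 639V, 9 were higher and 9 lower of 29 tested, 31.0% each, against 22.1% and 17.1% of all genes (39.2%). TCCSUP had 6 higher and 8 lower of 29 tested, 20.7% and 27.6%, against 25.7% and 23% of all genes (48.7%). VMCUB had 0 higher and 7 lower, 0% and 23.3%, against 16.4% and 11% of all genes (27.4%). VMCUB had 3 members higher at an unadjusted p below 0.05 in edgeR, and DESeq2 called 0 higher there (14.8% of all genes). SPATA18 was too low for a test in 639V and TCCSUP.

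Single libraries moved several of these counts. In HT1197 the number higher was 1 without DMSO replicate 2 and 2 without CPI-0209 replicate 1 or 3 or DMSO replicate 1, and the number lower was 1 without CPI-0209 replicate 1 or DMSO replicate 2. In those HT1197 fits 8.84% to 10.5% of all genes were higher and 4.45% to 6.48% lower. In HT1376, 4 members were higher without DMSO replicate 2 (20.1% of all genes). In T24 the 1 lower call held only without DMSO replicate 2 (0.479% of all genes). In KU1919 leaving out CPI-0209 replicate 1 gave 16 members higher and 6 lower (18.4% and 14.3% of all genes), and leaving out a DMSO library gave 3 or 4 higher (5.21% to 5.83%). In VMCUB leaving out DMSO replicate 2 or replicate 3 gave 12 members lower in either case (17% and 24.4% of all genes), and leaving out any other library gave 2 (1.89% to 2.71%).

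The median member moved little in any line. Its log2 fold change lay between -0.12 in VMCUB and 0.20 in KU1919, beside medians of all tested genes between -0.012 and 0.041. Scaling moved the median gene most in SW780, where library totals in place of TMM raised it by 0.20 on the log2 scale. That gave 14 members higher and 8 lower there, where 50.3% and 16.8% of all genes were called. The split of the members' calls moved most in VMCUB, from 0% to 37.5% higher, against 40% to 63.6% in SW780. With library totals the split was 4 higher and 1 lower in HT1197 (13.6% and 4.4% of all genes), 10 and 6 in 639V (26.3% and 10.3%), and 3 and 5 in VMCUB (21% and 5.34%). It stayed within 10 percentage points of the TMM split in HT1376, KU1919, T24 and TCCSUP.

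**Figure D2:**
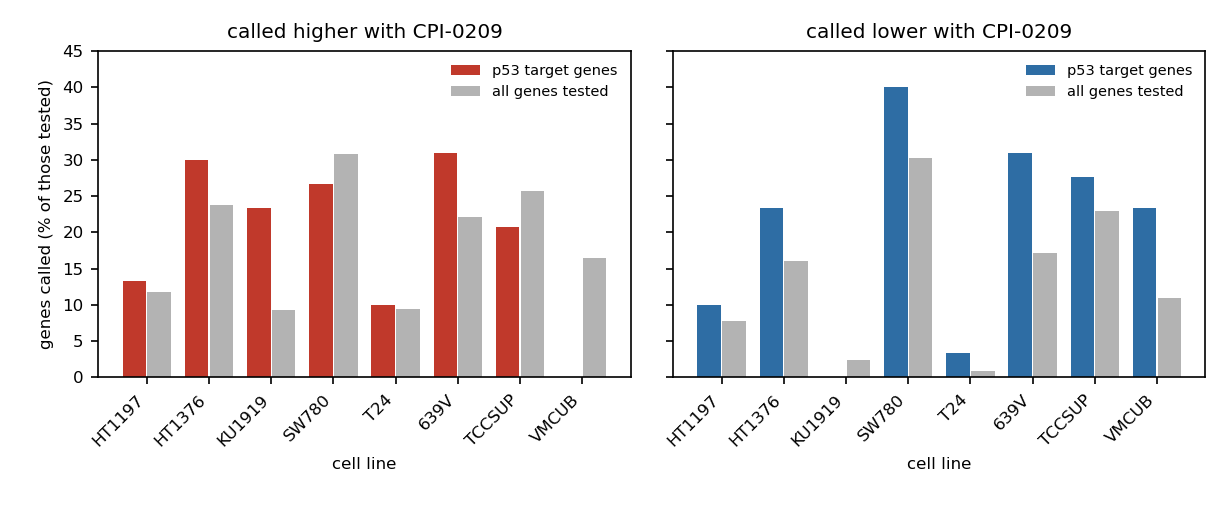
Percent of p53 target genes (coloured bars) and of all genes tested (grey bars) called higher or lower with CPI-0209 in each cell line, at an adjusted p below 0.05. In KU1919, 23.3% of the members were called higher against 9.3% of all genes, and in VMCUB 0% against 16.4%.

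**Figure D3:**
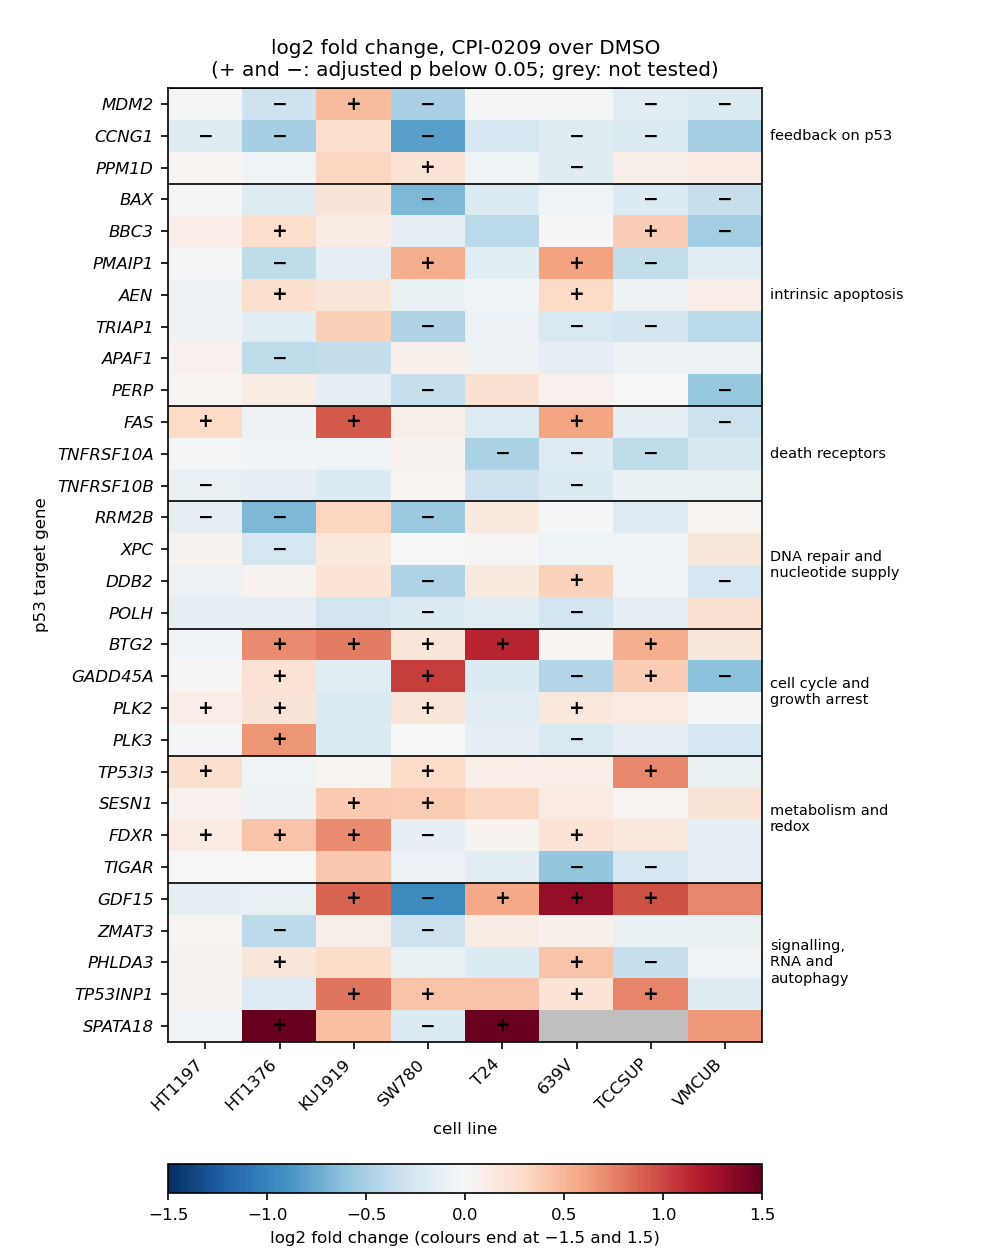
Log2 fold change of CPI-0209 over DMSO for each p53 target gene (rows) in each line (columns), with colours that end at -1.5 and 1.5, plus and minus signs for calls, and grey for pairs not tested. Single rows mix both colours, as GADD45A does with SW780 at 1.03 and VMCUB at -0.61.

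The response differed between lines for nearly every member. In a fit of 1 treatment effect shared by the lines, on counts summed over replicates, 0 members were called higher and 1 lower, against 7.31% and 4.41% of all genes (11.7% in either direction). The 1 was TNFRSF10B, the death receptor DR5, with a shared log2 fold change of -0.16 ± 0.046 SE, adjusted p = 0.0497 in edgeR, and the call was lost in 7 of the 8 fits that left out 1 line, all but the one without SW780. At an unadjusted p below 0.05 there were 8 members, 3 of them higher. Shared estimates ran from -0.32 ± 0.10 SE, adjusted p = 0.0676 for CCNG1 to 0.77 ± 0.26 SE, adjusted p = 0.0773 for SPATA18, and 13 were positive and 17 negative. DESeq2 on the same sums called 2 members higher and 4 lower, and 13.1% and 12.1% of all genes. When the difference between lines was itself tested (F test of 7 interaction terms, edgeR, 48 libraries), 29 of 30 members (96.7%) passed, against 58.7% of all genes. POLH, a DNA polymerase that copies past ultraviolet lesions, was the member that did not pass (adjusted p = 0.155). By their calls, 12 members were higher in some lines and lower in others, 6 were called only higher, and 12 only lower, against 17.7%, 32.3% and 29% of 19462 genes tested in at least 1 line. Each line tested 15474 to 16897 of those genes, while all members but SPATA18 were tested in all 8 lines. The shares thus compare genes with unlike chances of a call in both directions. Counting only calls that held when each library was left out, 5 members had both directions, PMAIP1, GDF15, DDB2, GADD45A and PHLDA3. The share of all genes that would do so was not computed.

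The genes that feed back on p53 were mostly lower where they were called, with 10 of 24 pairs (41.7%) lower and 2 (8.33%) higher. Over all genes and the 8 lines, 13.8% of 128302 tested pairs were lower and 18.8% higher, shares that also serve for the roles described next. Of the 10 lower calls, those of MDM2 in TCCSUP and VMCUB and of PPM1D in 639V were lost when single libraries were left out. MDM2 was called higher in KU1919 and lower in HT1376, SW780, TCCSUP and VMCUB. In KU1919, MDM2 (ENSG00000135679, chr12:68808176-68850686, hg38, GENCODE 29, as for all positions below) had 158, 159 and 148 CPM in the CPI-0209 libraries, against 115, 111 and 108 CPM in the DMSO libraries. All CPI-0209 libraries lay above all DMSO libraries there (log2 fold change 0.48 ± 0.073 SE, adjusted p = 0.0059), although the call was lost without DMSO replicate 2 or 3 (adjusted p up to 0.0517). In SW780, MDM2 had 114, 123 and 111 CPM in the CPI-0209 libraries, against 152, 165 and 161 CPM in the DMSO libraries and fell (log2 fold change -0.49 ± 0.046 SE, adjusted p = 3.56e-08). In HT1197, where MDM2 was most abundant, the libraries of both treatments overlapped and no call was made (log2 fold change -0.017 ± 0.04 SE, adjusted p = 0.828). The call of MDM2 in TCCSUP was lost without CPI-0209 replicate 1, 2 or 3 or DMSO replicate 1 (adjusted p up to 0.142), and that in VMCUB without CPI-0209 replicate 1, 2 or 3 or DMSO replicate 1 (adjusted p up to 0.138).

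CCNG1, cyclin G1, which recruits a phosphatase to MDM2, was called lower in 5 lines and higher in 0. CCNG1 (ENSG00000113328, chr5:163437569-163446151) had 74.1, 80.1 and 73.1 CPM in the CPI-0209 libraries, against 122, 133 and 137 CPM in the DMSO libraries of SW780. That was its largest change (log2 fold change -0.81 ± 0.049 SE, adjusted p = 6.45e-11), with no overlap between treatments. In HT1376, CCNG1 had 37.5, 39.95 and 37.3 CPM with CPI-0209, against 55.8, 54.2 and 55.7 CPM with DMSO (log2 fold change -0.50 ± 0.051 SE, adjusted p = 4.6e-05), and in HT1197 it had 111, 108 and 102 CPM with CPI-0209, against 123, 121 and 126 CPM with DMSO (log2 fold change -0.18 ± 0.036 SE, adjusted p = 0.00185). Both falls left the treatments apart, the one in HT1197 by a small margin. CCNG1 also fell in 639V (-0.18 ± 0.044) and TCCSUP (-0.21 ± 0.054), given as log2 fold change ± SE. In VMCUB its DMSO libraries spread widely, 77.5, 75.9 and 78.8 CPM with CPI-0209, against 105, 148 and 87.2 CPM with DMSO, and no call was made (log2 fold change -0.49 ± 0.17 SE, adjusted p = 0.0684). PPM1D, a phosphatase that removes damage marks from p53, rose in SW780 (0.20 ± 0.053) and was called lower in 639V (-0.18 ± 0.059), a call lost without CPI-0209 replicate 3 or DMSO replicate 1 or 3 (adjusted p up to 0.0941).

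Cell cycle and growth arrest genes were the role with the most calls upward, with 13 of 32 pairs higher (40.6%, against 18.8% of all genes) and 3 lower (9.38%, against 13.8%). BTG2 was called higher in 5 lines and lower in 0. BTG2 (ENSG00000159388, chr1:203305491-203309602) had 8.99, 8.47 and 10.1 CPM in the CPI-0209 libraries, against 4.58, 4.28 and 3.69 CPM in the DMSO libraries of T24. All treated libraries lay well above the vehicle libraries (log2 fold change 1.14 ± 0.12 SE, adjusted p = 0.00116). In HT1376, BTG2 had 175, 166 and 160.2 CPM with CPI-0209, against 105, 104 and 105 CPM with DMSO (log2 fold change 0.70 ± 0.052 SE, adjusted p = 4.93e-06), again without overlap. It also rose in KU1919 (0.77 ± 0.08), TCCSUP (0.55 ± 0.064) and SW780 (0.18 ± 0.042), as log2 fold change ± SE. HT1197 (log2 fold change -0.045 ± 0.032 SE, adjusted p = 0.384) and 639V (log2 fold change 0.029 ± 0.059 SE, adjusted p = 0.732) had no call.

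GADD45A, a stress sensor that acts in growth arrest and DNA repair, had the smallest p for the difference between lines among members called in both directions (adjusted p = 2.83e-13, edgeR interaction test). GADD45A (ENSG00000116717, chr1:67685061-67688338) had 124, 115 and 121 CPM in the CPI-0209 libraries, against 58.7, 51.7 and 61.8 CPM in the DMSO libraries of SW780. Its level in SW780 was thus higher in every treated library (log2 fold change 1.03 ± 0.058 SE, adjusted p = 1.79e-10). In TCCSUP, GADD45A had 127, 133 and 139 CPM with CPI-0209, against 118, 98.1 and 99.8 CPM with DMSO (log2 fold change 0.38 ± 0.072 SE, adjusted p = 0.001), and in HT1376 401, 395 and 395 CPM with CPI-0209, against 365, 329 and 349 CPM with DMSO (log2 fold change 0.22 ± 0.053 SE, adjusted p = 0.00978). Treated libraries stood above vehicle in both, and the HT1376 call was lost without CPI-0209 replicate 1 or DMSO replicate 2 (adjusted p up to 0.099).

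The opposite direction appeared in VMCUB, where GADD45A had 182, 190.4 and 184 CPM with CPI-0209, against 283, 333 and 266 CPM with DMSO (log2 fold change -0.61 ± 0.085 SE, adjusted p = 0.00299). In 639V, GADD45A had 35.5, 39.8 and 36.4 CPM with CPI-0209, against 51.1, 52.3 and 48.01 CPM with DMSO (log2 fold change -0.44 ± 0.052 SE, adjusted p = 1.1e-05). No treated library of these 2 lines reached the lowest vehicle library. In T24, GADD45A had 118, 124 and 152 CPM with CPI-0209, against 152, 172 and 133 CPM with DMSO (log2 fold change -0.21 ± 0.12 SE, adjusted p = 0.397), in KU1919 93.2, 73.98 and 78.7 CPM with CPI-0209, against 94.8, 90.8 and 87.96 CPM with DMSO (log2 fold change -0.16 ± 0.087 SE, adjusted p = 0.306) and in HT1197 392.2, 391 and 413 CPM with CPI-0209, against 389, 412 and 394 CPM with DMSO (log2 fold change 0.022 ± 0.034 SE, adjusted p = 0.723). Treatments overlapped in these 3 lines, and none had a call.

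PLK2 and PLK3 are polo-like kinases induced by stress. PLK2 was called higher in HT1197, HT1376, SW780 and 639V, always by little, with log2 fold changes from 0.095 in HT1197 to 0.19 in HT1376. The HT1197 call was lost without any 1 of the 6 libraries (adjusted p up to 0.117), and the HT1376 call without CPI-0209 replicate 1 or 3 or DMSO replicate 2 (adjusted p up to 0.13). PLK3 rose in HT1376, where it had 67.7, 69.3 and 69.3 CPM with CPI-0209, against 45.95, 43.8 and 42.9 CPM with DMSO (log2 fold change 0.66 ± 0.05 SE, adjusted p = 6.23e-06), with every treated library above vehicle. It was called lower in 639V (log2 fold change -0.22 ± 0.076 SE, adjusted p = 0.0312), a call lost without CPI-0209 replicate 1 or DMSO replicate 1 or 2 (adjusted p up to 0.138).

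**Figure D4:**
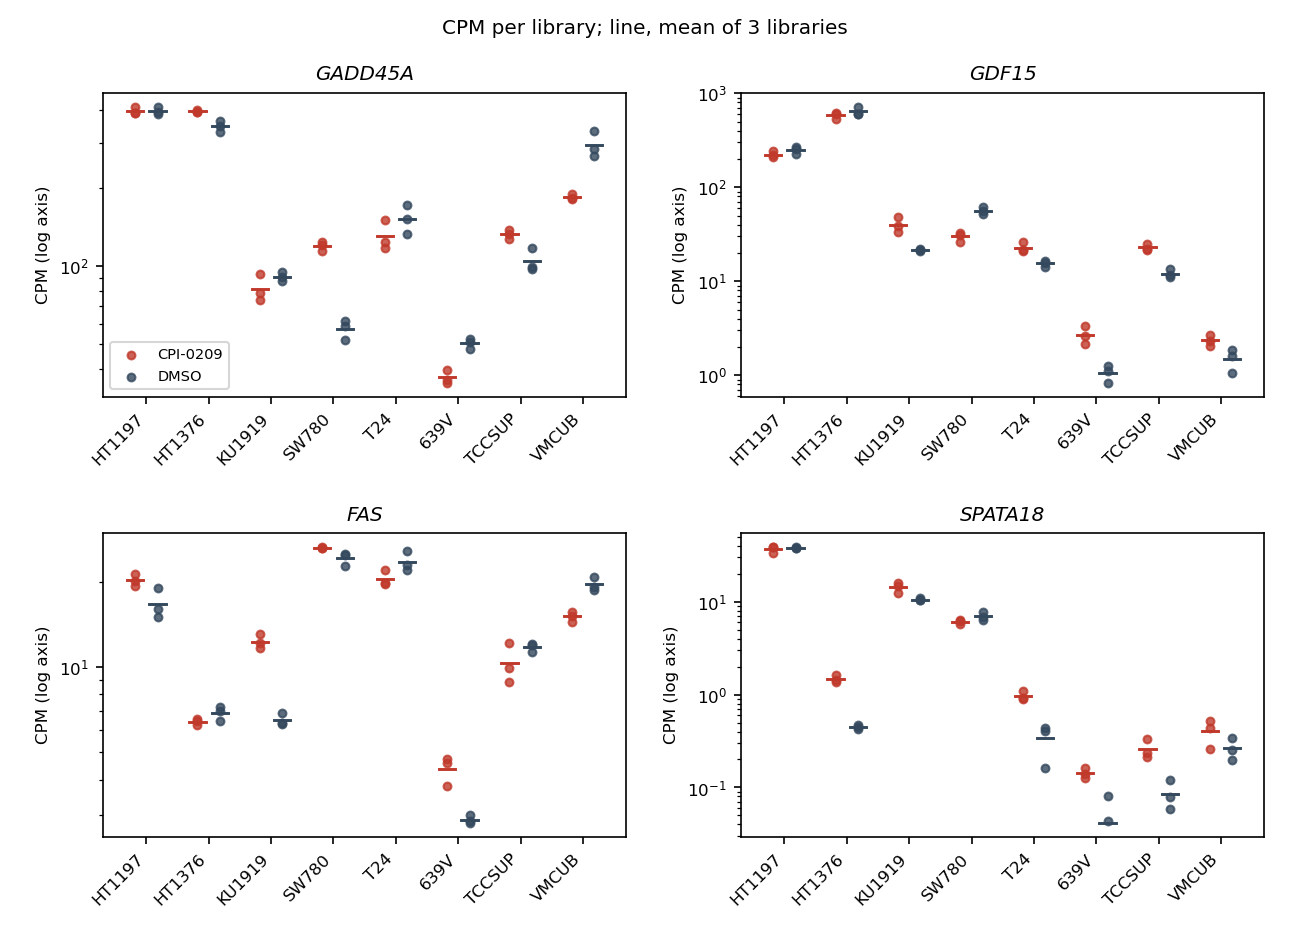
CPM per library (log axis) of GADD45A, GDF15, FAS and SPATA18 in each line, CPI-0209 left of DMSO, with a line at the mean of 3 libraries; the 639V DMSO library without SPATA18 counts is not drawn. GADD45A stands higher with CPI-0209 in SW780 and lower in VMCUB and 639V, and GDF15 higher in 639V and lower in SW780.

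Among genes of signalling, RNA regulation and autophagy, 12 of 40 pairs were called higher (30%, against 18.8% of all genes) and 5 lower (12.5%, against 13.8%), with 2 not tested. GDF15 was called higher in 4 lines and lower in SW780. GDF15 (ENSG00000130513, chr19:18374731-18389176) had 2.14, 3.36 and 2.64 CPM in the CPI-0209 libraries, against 1.12, 1.26 and 0.831 CPM in the DMSO libraries of 639V. The level was low in both treatments, and all treated libraries were above vehicle (log2 fold change 1.32 ± 0.19 SE, adjusted p = 9.96e-05). In TCCSUP, GDF15 had 22.1, 25.03 and 21.8 CPM with CPI-0209, against 13.5, 11.1 and 11.6 CPM with DMSO (log2 fold change 0.96 ± 0.088 SE, adjusted p = 1.62e-06). In KU1919, GDF15 had 47.9, 33.4 and 38.5 CPM with CPI-0209, against 21.01, 21.7 and 22.3 CPM with DMSO (log2 fold change 0.87 ± 0.12 SE, adjusted p = 0.00347). In T24, GDF15 had 20.9, 21.5 and 25.9 CPM with CPI-0209, against 16.6, 15.7 and 14.3 CPM with DMSO (log2 fold change 0.56 ± 0.10 SE, adjusted p = 0.0108), a call lost without DMSO replicate 3 (adjusted p = 0.0774). Treatments did not overlap in any of these 4 lines.

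SW780 went the other way for GDF15, with 32.9, 26.2 and 30.8 CPM with CPI-0209, against 56.5, 51.8 and 61.3 CPM with DMSO (log2 fold change -0.95 ± 0.091 SE, adjusted p = 1.36e-05). VMCUB had 2.06, 2.69 and 2.301 CPM with CPI-0209, against 1.59, 1.85 and 1.05 CPM with DMSO, without overlap but short of the threshold (log2 fold change 0.71 ± 0.22 SE, adjusted p = 0.0511). The 2 lines with the most GDF15 showed overlapping treatments. HT1376 had 531, 609 and 604 CPM with CPI-0209, against 717, 599 and 604 CPM with DMSO (log2 fold change -0.11 ± 0.084 SE, adjusted p = 0.331), and HT1197 had 219, 208 and 242 CPM with CPI-0209, against 228, 269 and 254 CPM with DMSO (log2 fold change -0.15 ± 0.07 SE, adjusted p = 0.202).

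SPATA18, also called MIEAP, has a role in mitochondrial quality control, and gave the largest called fold changes from low levels. SPATA18 (ENSG00000163071, chr4:52051331-52097292) had 1.63, 1.35 and 1.42 CPM in the CPI-0209 libraries, against 0.426, 0.4505 and 0.467 CPM in the DMSO libraries of HT1376 (log2 fold change 1.74 ± 0.20 SE, adjusted p = 0.000119). Those values rest on 62, 38 and 43 counts with CPI-0209, against 17, 16 and 17 counts with DMSO. In T24, SPATA18 had 1.0997, 0.889 and 0.912 CPM with CPI-0209, against 0.408, 0.439 and 0.163 CPM with DMSO (log2 fold change 1.49 ± 0.34 SE, adjusted p = 0.0353). Treatments were apart in both lines, and the T24 call was lost without CPI-0209 replicate 1 or 2 or DMSO replicate 1 or 2 (adjusted p up to 0.136).

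SPATA18 differed little between treatments in HT1197 and SW780, lines where it was more abundant. HT1197 had 38.5, 38.6 and 33.1 CPM with CPI-0209, against 37.7, 38.7 and 38.2 CPM with DMSO (log2 fold change -0.036 ± 0.055 SE, adjusted p = 0.711), and SW780 had 5.69, 6.23 and 6.38 CPM with CPI-0209, against 6.35, 7.72 and 6.77 CPM with DMSO (log2 fold change -0.22 ± 0.09 SE, adjusted p = 0.0434). The SW780 treatments overlapped, its call was lost without CPI-0209 replicate 1 or 2 or DMSO replicate 2 (adjusted p up to 0.244), and with library totals its log2 fold change was -0.018 (adjusted p = 0.876). KU1919 had 12.3, 14.8 and 16.01 CPM with CPI-0209, against 10.9, 10.4 and 10.4 CPM with DMSO (log2 fold change 0.45 ± 0.13 SE, adjusted p = 0.0676), and VMCUB had 0.433, 0.258 and 0.518 CPM with CPI-0209, against 0.254, 0.341 and 0.195 CPM with DMSO (log2 fold change 0.65 ± 0.37 SE, adjusted p = 0.218). In 639V it had 8, 7 and 8 counts with CPI-0209, against 2, 0 and 3 counts with DMSO, and in TCCSUP 11, 9 and 9 counts with CPI-0209, against 4, 2 and 3 counts with DMSO. All treated libraries were above vehicle in KU1919, 639V and TCCSUP, without a call.

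TP53INP1, a nuclear stress protein tied to autophagy, was called higher in 4 lines and lower in 0. TP53INP1 (ENSG00000164938, chr8:94925972-94949411) had 17.6, 17.8 and 18.2 CPM in the CPI-0209 libraries, against 11.6, 11.8 and 9.77 CPM in the DMSO libraries of TCCSUP, clear of each other (log2 fold change 0.73 ± 0.079 SE, adjusted p = 7.15e-06). It rose in SW780 (0.43 ± 0.056) and was called higher in KU1919 (0.80 ± 0.15) and 639V (0.20 ± 0.065), as log2 fold change ± SE. The KU1919 call was lost without CPI-0209 replicate 2 or 3 or DMSO replicate 1, 2 or 3 (adjusted p up to 0.0757), and the 639V call without CPI-0209 replicate 1 or 3 or DMSO replicate 1 or 2 (adjusted p up to 0.128). ZMAT3, an RNA-binding protein that governs splicing, fell in SW780 (-0.31 ± 0.051) and was called lower in HT1376 (-0.39 ± 0.11), where the call was lost without CPI-0209 replicate 2 or 3 (adjusted p up to 0.07). With library totals its SW780 call was lost too (log2 fold change -0.11, adjusted p = 0.102, edgeR). PHLDA3 rose in 639V (0.43 ± 0.082), was called higher in HT1376 (0.18 ± 0.058) and fell in TCCSUP (-0.34 ± 0.057), and its HT1376 call was lost without CPI-0209 replicate 1, 2 or 3 or DMSO replicate 2 or 3 (adjusted p up to 0.203).

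Genes grouped under intrinsic apoptosis were called lower in 12 of 56 pairs (21.4%, against 13.8% of all genes) and higher in 6 (10.7%, against 18.8%). The group also holds TRIAP1, which opposes apoptosis, and PERP and AEN, so these shares do not describe the mitochondrial death route alone. Its lower calls include those of TRIAP1 in SW780, TCCSUP and 639V and of PERP in VMCUB and SW780. PMAIP1 (NOXA), a BH3-only protein that blocks MCL1, moved in both directions. PMAIP1 (ENSG00000141682, chr18:59899948-59904306) had 19.4, 19.9 and 18.8 CPM in the CPI-0209 libraries, against 13.1, 12.5 and 13.6 CPM in the DMSO libraries of SW780 (log2 fold change 0.54 ± 0.06 SE, adjusted p = 2.84e-07). In 639V, PMAIP1 had 12.3, 12.2 and 12.6 CPM with CPI-0209, against 8.51, 8.44 and 7.296 CPM with DMSO (log2 fold change 0.61 ± 0.07 SE, adjusted p = 9.26e-06). Vehicle levels were low in both lines, and every treated library was above them. In TCCSUP, PMAIP1 had 68.2, 65.4 and 66.8 CPM with CPI-0209, against 97.2, 85.4 and 83.3 CPM with DMSO (log2 fold change -0.37 ± 0.063 SE, adjusted p = 0.000323), and in HT1376 90.97, 83.7 and 78.8 CPM with CPI-0209, against 113, 107 and 118 CPM with DMSO (log2 fold change -0.39 ± 0.065 SE, adjusted p = 0.00132). Vehicle levels were higher in these lines, and both fell without overlap.

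BAX, which perforates the outer mitochondrial membrane, fell in SW780, where it had 101, 91.1 and 93.5 CPM with CPI-0209, against 151, 143 and 154 CPM with DMSO (log2 fold change -0.68 ± 0.048 SE, adjusted p = 6.57e-10). BAX was also called lower in VMCUB (-0.35 ± 0.07) and TCCSUP (-0.21 ± 0.056), and its VMCUB call was lost without CPI-0209 replicate 1, 2 or 3 or DMSO replicate 1 (adjusted p up to 0.0701). PERP (ENSG00000112378, chr6:138088505-138107511) had 249.9, 256 and 248 CPM in the CPI-0209 libraries, against 393, 406 and 360.3 CPM in the DMSO libraries of VMCUB. The treated libraries were close to each other and all below vehicle (log2 fold change -0.57 ± 0.067 SE, adjusted p = 0.00144), and PERP fell in SW780 too (-0.34 ± 0.041). BBC3 (PUMA), a BH3-only protein, rose in TCCSUP (0.37 ± 0.084) and was called higher in HT1376 (0.27 ± 0.061) and lower in VMCUB (-0.53 ± 0.12). Its HT1376 call was lost without DMSO replicate 2 (adjusted p = 0.0588), and its VMCUB call without CPI-0209 replicate 1, 2 or 3 or DMSO replicate 1 (adjusted p up to 0.0951). TRIAP1, which supports mitochondrial lipid transfer and opposes apoptosis, fell in SW780 (-0.45 ± 0.052), TCCSUP (-0.28 ± 0.075) and 639V (-0.22 ± 0.057). AEN, an apoptosis-enhancing nuclease, rose in 639V (0.30 ± 0.048) and was called higher in HT1376 (0.24 ± 0.054), a call lost without DMSO replicate 2 (adjusted p = 0.054). APAF1, the scaffold of the apoptosome, was called lower in HT1376 alone (log2 fold change -0.38 ± 0.11 SE, adjusted p = 0.0187), a call lost without CPI-0209 replicate 2 or 3 (adjusted p up to 0.0788).

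The death receptors were called lower in 6 of 24 pairs (25%, against 13.8% of all genes) and higher in 3 (12.5%, against 18.8%), and all 3 of those were FAS, the receptor of Fas ligand. FAS (ENSG00000026103, chr10:88990582-89015785) had 12.2, 13.04 and 11.6 CPM in the CPI-0209 libraries, against 6.86, 6.27 and 6.34 CPM in the DMSO libraries of KU1919. All treated libraries were far above vehicle (log2 fold change 0.91 ± 0.10 SE, adjusted p = 0.00122). In 639V, FAS had 4.58, 3.798 and 4.72 CPM with CPI-0209, against 2.81, 2.85 and 3.004 CPM with DMSO (log2 fold change 0.59 ± 0.11 SE, adjusted p = 0.000895), and in HT1197 20.04, 21.3 and 19.3 CPM with CPI-0209, against 15.05, 16.005 and 19.04 CPM with DMSO (log2 fold change 0.30 ± 0.074 SE, adjusted p = 0.0115). In both lines the lowest treated library was above the highest vehicle library, and the HT1197 call was lost without DMSO replicate 2 (adjusted p = 0.0637). VMCUB was called lower, with 14.4, 15.7 and 15.1 CPM with CPI-0209, against 18.7, 20.8 and 19.2 CPM with DMSO (log2 fold change -0.32 ± 0.069 SE, adjusted p = 0.0158), a call lost without CPI-0209 replicate 1, 2 or 3 or DMSO replicate 1 (adjusted p up to 0.0834).

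FAS had no call in the other 4 lines. SW780 had 26.3, 26.2 and 26.5 CPM with CPI-0209, against 22.7, 24.8 and 25.1 CPM with DMSO (log2 fold change 0.091 ± 0.052 SE, adjusted p = 0.138), and T24 had 19.6, 19.9 and 21.9 CPM with CPI-0209, against 21.9, 25.7 and 22.9 CPM with DMSO (log2 fold change -0.19 ± 0.09 SE, adjusted p = 0.299). TCCSUP had 9.92, 8.85 and 12.2 CPM with CPI-0209, against 11.3, 12.1 and 11.99 CPM with DMSO (log2 fold change -0.15 ± 0.10 SE, adjusted p = 0.239), and HT1376 had 6.46, 6.53 and 6.23 CPM with CPI-0209, against 7.22, 6.98 and 6.46 CPM with DMSO (log2 fold change -0.076 ± 0.086 SE, adjusted p = 0.519). Treatments overlapped in T24, TCCSUP and HT1376 and were narrowly apart in SW780.

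TNFRSF10A (DR4), a receptor of the ligand TRAIL, was called lower in 3 lines and higher in 0. TNFRSF10A (ENSG00000104689, chr8:23190452-23225126) had 18.8, 19.3 and 17.3 CPM in the CPI-0209 libraries, against 27.5, 23.4 and 26.998 CPM in the DMSO libraries of T24 (log2 fold change -0.48 ± 0.11 SE, adjusted p = 0.0393). In TCCSUP, TNFRSF10A had 17.1, 15.3 and 14.6 CPM with CPI-0209, against 21.4, 20.98 and 20.4 CPM with DMSO (log2 fold change -0.38 ± 0.07 SE, adjusted p = 0.000629). Every treated library was below vehicle in both lines, and the T24 call was lost without CPI-0209 replicate 1, 2 or 3 or DMSO replicate 1 or 3 (adjusted p up to 0.142). It was called lower in 639V as well (-0.20 ± 0.058), a call lost without DMSO replicate 1 (adjusted p = 0.0712). TNFRSF10B, the other TRAIL receptor, fell in 639V (log2 fold change -0.22 ± 0.049 SE, adjusted p = 0.00263) and was called lower in HT1197 (log2 fold change -0.11 ± 0.031 SE, adjusted p = 0.0229), where the call was lost without CPI-0209 replicate 1 or 3 or DMSO replicate 1 or 2 (adjusted p up to 0.0992). Its treated libraries lay below all vehicle libraries in HT1197, HT1376, KU1919, T24, 639V and TCCSUP, and above them in SW780 (log2 fold change 0.04 ± 0.039 SE, adjusted p = 0.387).

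DNA repair and nucleotide supply genes were called lower in 8 of 32 pairs (25%, against 13.8% of all genes) and higher in 1 (3.12%, against 18.8%). RRM2B, the p53-inducible small subunit of ribonucleotide reductase, held 3 of the 8. RRM2B (ENSG00000048392, chr8:102204502-102239118) had 15.02, 14.8 and 11.9 CPM in the CPI-0209 libraries, against 20.3, 23.003 and 24.96 CPM in the DMSO libraries of HT1376 (log2 fold change -0.68 ± 0.11 SE, adjusted p = 0.000811). In HT1197, where it was most abundant, RRM2B had 135, 140.3 and 135 CPM with CPI-0209, against 152, 159 and 145 CPM with DMSO (log2 fold change -0.13 ± 0.038 SE, adjusted p = 0.0212). Treatments were apart in both lines, and the small change in HT1197 lost its call without CPI-0209 replicate 1 or 3 or DMSO replicate 1 or 2 (adjusted p up to 0.133). RRM2B fell in SW780 too (-0.56 ± 0.055). DDB2, whose promoter holds the full element printed above, fell in SW780, with 90.97, 87.2 and 90.3 CPM with CPI-0209, against 122, 118 and 122 CPM with DMSO (log2 fold change -0.46 ± 0.042 SE, adjusted p = 2.3e-08), and rose in 639V, with 17.7, 19.1 and 18.8 CPM with CPI-0209, against 14.4, 14.1 and 14.9 CPM with DMSO (log2 fold change 0.35 ± 0.057 SE, adjusted p = 0.000235). It was called lower in VMCUB as well (log2 fold change -0.25 ± 0.075 SE, adjusted p = 0.0487), a call lost without CPI-0209 replicate 1, 2 or 3 or DMSO replicate 1 (adjusted p up to 0.165). XPC, which starts nucleotide excision repair, fell in HT1376 (-0.27 ± 0.048). POLH fell in 639V (-0.29 ± 0.058) and SW780 (-0.21 ± 0.052). With library totals the SW780 value of POLH moved to -0.0050.

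Metabolic and redox genes were called higher in 9 of 32 pairs (28.1%, against 18.8% of all genes) and lower in 3 (9.38%, against 13.8%). TP53I3 (PIG3), an oxidoreductase, was called higher in 3 lines and lower in 0. TP53I3 (ENSG00000115129, chr2:24077433-24085861) had 39.3, 39.5 and 39.8 CPM in the CPI-0209 libraries, against 34.2, 33.3 and 34.4 CPM in the DMSO libraries of HT1197 (log2 fold change 0.24 ± 0.042 SE, adjusted p = 0.000771). In TCCSUP, TP53I3 had 29.7, 28.99 and 30.02 CPM with CPI-0209, against 18.4, 18.4 and 18.2 CPM with DMSO (log2 fold change 0.73 ± 0.055 SE, adjusted p = 2.3e-07). Replicates were tight in both lines, and treatments did not overlap. It also rose in SW780 (0.29 ± 0.046). SESN1, a stress-induced inhibitor of mTORC1 signalling, rose in SW780 (log2 fold change 0.38 ± 0.051 SE, adjusted p = 3.18e-06) and was called higher in KU1919 (log2 fold change 0.40 ± 0.082 SE, adjusted p = 0.0205), a call lost without CPI-0209 replicate 2 or 3 or DMSO replicate 1, 2 or 3 (adjusted p up to 0.125).

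FDXR, which feeds electrons to mitochondrial enzymes, was called higher in HT1197, HT1376, KU1919 and 639V and lower in SW780. In KU1919, FDXR had 75.9, 48.97 and 57.3 CPM with CPI-0209, against 37.5, 35.5 and 37.6 CPM with DMSO (log2 fold change 0.71 ± 0.14 SE, adjusted p = 0.0152), with replicate 1 the highest treated library. In HT1376, FDXR had 22.6, 25.2 and 22.7 CPM with CPI-0209, against 19.96, 16.5 and 16.7 CPM with DMSO (log2 fold change 0.43 ± 0.086 SE, adjusted p = 0.00323). Treatments were apart in both, and overlapped in HT1197 despite the call. The KU1919 call was lost without DMSO replicate 1, 2 or 3 (adjusted p up to 0.0797), the HT1197 call without CPI-0209 replicate 1 or 3 or DMSO replicate 1 or 2 (adjusted p up to 0.141) and the SW780 call without CPI-0209 replicate 1, 2 or 3 or DMSO replicate 3 (adjusted p up to 0.17). FDXR in SW780 was lower by little (log2 fold change -0.12 ± 0.045 SE, adjusted p = 0.0292), and library totals turned its direction, to 0.082 (adjusted p = 0.117). TIGAR, a phosphatase that lowers glycolytic flux, fell in 639V, where TIGAR (ENSG00000078237, chr12:4307763-4354593) had 19.4, 19.9 and 17.6 CPM with CPI-0209, against 26.6, 28.02 and 29.9 CPM with DMSO (log2 fold change -0.57 ± 0.062 SE, adjusted p = 4.59e-06). It was also called lower in TCCSUP (log2 fold change -0.26 ± 0.079 SE, adjusted p = 0.0154), a call lost without CPI-0209 replicate 2 (adjusted p = 0.0599).

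Outside the 30 genes, CDKN1A is the p53 target best known for cell cycle arrest, and it was called higher in more lines than any member. CDKN1A, the gene of the cyclin-dependent kinase inhibitor p21, rose in the shared fit (log2 fold change 0.34 ± 0.075 SE, adjusted p = 0.0264, edgeR) and was called higher in 7 of 8 lines, all but HT1197. In 639V, CDKN1A had 13.4, 14.7 and 11.8 CPM with CPI-0209, against 7.63, 8.42 and 7.83 CPM with DMSO (log2 fold change 0.74 ± 0.082 SE, adjusted p = 5.75e-06), and in TCCSUP 175, 171 and 171 CPM with CPI-0209, against 115, 121 and 118 CPM with DMSO (log2 fold change 0.58 ± 0.046 SE, adjusted p = 3.67e-07). HT1197, which had the most CDKN1A in vehicle, showed overlapping treatments, with 673, 666 and 708 CPM with CPI-0209, against 643, 677 and 673 CPM with DMSO (log2 fold change 0.058 ± 0.034 SE, adjusted p = 0.269). The shared call was lost without T24 or without TCCSUP (adjusted p up to 0.0643). Single-line calls of CDKN1A in HT1376, 639V and TCCSUP held in every fit that left out 1 library, and those in KU1919, SW780, T24 and VMCUB were lost in some.

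Among 40 other reported p53 targets, CDKN1A included, 4 were called higher and 4 lower in the shared fit, against 7.31% and 4.41% of all genes. STEAP3, an iron reductase, was called higher in 8 of 8 lines (shared log2 fold change 0.82 ± 0.19 SE, adjusted p = 0.0295), and RRAD, a small GTPase, in 4 lines (0.69 ± 0.14, adjusted p = 0.0236). DUSP5, a nuclear phosphatase of ERK, was called lower in 7 lines (-0.39 ± 0.081, adjusted p = 0.0234). Each of these 3 shared calls was lost without T24, and some without other lines (adjusted p up to 0.0642). By line these 40 genes had 8 higher and 3 lower in HT1197 (11.8% and 7.8% of all genes), 9 and 9 in HT1376 (23.7% and 16%), 6 and 3 in KU1919 (9.3% and 2.4%), and 8 and 21 in SW780 (30.8% and 30.3%). In the other lines the list had 3 higher and 4 lower in T24 (9.37% and 0.93%), 12 and 9 in 639V (22.1% and 17.1%), 13 and 10 in TCCSUP (25.7% and 23%), and 7 and 6 in VMCUB (16.4% and 11%).

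Of 21 regulators of p53, 1 was called in the shared fit, CHEK1, a checkpoint kinase, which was lower (-0.18 ± 0.041, adjusted p = 0.0283). The p53 relatives TP63 and TP73 moved by line. TP73 was most above vehicle in VMCUB, with 3.75, 4.12 and 4.18 CPM with CPI-0209, against 0.635, 0.512 and 0.488 CPM with DMSO (log2 fold change 2.93 ± 0.15 SE, adjusted p = 7.98e-05), and in SW780, with 4.91, 5.17 and 5.497 CPM with CPI-0209, against 0.751, 0.909 and 0.586 CPM with DMSO (log2 fold change 2.76 ± 0.15 SE, adjusted p = 1.45e-11). TP63 was called lower in VMCUB (log2 fold change -0.55 ± 0.11 SE, adjusted p = 0.0131) and higher in SW780 (log2 fold change 0.42 ± 0.042 SE, adjusted p = 7.61e-08). Fits without single libraries are not given here for TP63 and TP73. The share of these relatives in the members' levels was not tested.

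Among 25 cell cycle genes that fall when p53 is active, 19 were called lower in HT1197 (7.8% of all genes), 19 in SW780 (30.3%, with 1 higher) and 10 in TCCSUP (23%), with medians of -0.18, -0.27 and -0.11 on the log2 scale. In 639V, 5 were higher and 1 lower (22.1% and 17.1% of all genes), and in VMCUB 4 were lower (11%). In KU1919 1 was lower (2.4%) and in HT1376 1 was higher (23.7%), with no call in T24. Medians in these lines were -0.12 in KU1919, -0.044 in VMCUB, -0.024 in HT1376, -0.020 in T24 and 0.055 in 639V. Library totals raised the median gene in SW780 by 0.20, and values of this list with library totals are not given here. Of 18 integrated stress response genes, which share some targets with p53, 9 were called higher and 1 lower in TCCSUP (25.7% and 23% of all genes), 6 and 7 in SW780 (30.8% and 30.3%), 6 and 6 in 639V (22.1% and 17.1%) and 3 and 1 in KU1919 (9.3% and 2.4%). There were 2 and 5 in HT1376 (23.7% and 16%), 2 and 3 in HT1197 (11.8% and 7.8%) and 2 and 2 in VMCUB (16.4% and 11%), with no call in T24. ATF3, a stress transcription factor, was the 1 called in the shared fit (0.65 ± 0.17, adjusted p = 0.0429), and was higher in 5 lines. Of the PRC2 core genes, SUZ12 was lower in the shared fit (-0.21 ± 0.045, adjusted p = 0.0249), while EZH2, the target of CPI-0209, had no call (0.034 ± 0.034, adjusted p = 0.513), nor did EED (-0.11 ± 0.045, adjusted p = 0.116) or EZH1 (0.052 ± 0.063, adjusted p = 0.59). The shared calls of CHEK1, ATF3 and SUZ12 were each lost without some lines (adjusted p up to 0.0889) and without replicate 3 (up to 0.0552), and those of CHEK1 and SUZ12 also with library totals (0.104 and 0.159).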

How the data were processed

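Gene counts from bulk RNA sequencing of 48 libraries (8 lines, CPI-0209 or DMSO, 3 libraries each) were analysed. The deposited whole-number counts were made by the authors with STAR 2.7.3a and RSEM 1.3.1 on hg38, per the submitters' processing notes. The annotation, the strand setting and how RSEM's estimates became whole numbers are not given in the sources used here. A TruSeq kit is named in the labels, which also call the protocol strand-specific, so overlap with opposite-strand genes is reported as uncertain. The table held 35535 gene IDs, 3756 of them at 0 in every library, and 0 columns were left unmapped. Symbols were found for 35414 IDs, and 35497 were in GENCODE 29, which gave positions and exon lengths.

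Counts were tested with edgeR 4.0.16 (robust quasi-likelihood, TMM, filterByExpr, R 4.3.3, limma 3.58.1), with Benjamini-Hochberg adjustment over all genes tested and a threshold of 0.05. Each line was fitted on its 6 libraries, the shared effect on 16 sums over replicates with line as a term, the difference between lines on 48 libraries (7 interaction terms), and the vehicle level on 24 DMSO libraries. The SE of a log2 fold change was derived from its F statistic. CPM used TMM factors over all libraries. Tests were checked on simulated data. Changes of 1.5-fold put into simulated counts were recovered for 19% of genes in T24, 28% in KU1919 and 40% in VMCUB. In the other lines 63% to 81% were recovered. An absent call thus says less in T24, KU1919 and VMCUB. False calls in the simulations were 15 of 163 in HT1197, 14 of 158 in HT1376, 7 of 109 in KU1919 and 14 of 185 in SW780. They were 9 of 91 in T24, 15 of 174 in 639V, 21 of 182 in TCCSUP and 13 of 125 in VMCUB. In every line that is more than the share of 0.05 at which the threshold aims. Calls close to the threshold are thus less sure than their adjusted p states. Alternatives were RLE scaling, library totals, DESeq2 1.42.0, no low-count filter, a replicate block, all libraries in 1 fit, and leaving out libraries or lines. Tables and plots were made with Python 3.11.15, pandas 2.3.3 and matplotlib 3.10.9. Library totals ranged from 26481418 to 50916911 counts. Promoters came from RefSeq (GRCh38.p14).

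The members and all lists were chosen with earlier results of these data known. Values in every library are given for called members with the largest changes in each line (up to 2 higher and 2 lower) and up to 4 members with calls in both directions and the smallest interaction p. Of the other lists, up to 4 genes with the smallest shared p are named, and CDKN1A and the PRC2 core genes always. A further gene that this rule names is not reported here. Other values were shown after they were seen.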

Additional observations from a re-analysis of the deposited data

Results flagged for a closer look

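The treatment response of 29 of the 30 p53 targets differed between the 8 lines when that difference was itself tested (edgeR interaction F test, 48 libraries), beside 58.7% of all genes tested. The members with the smallest p-values are given first, with the lowest and the highest log2 fold change of CPI-0209 over DMSO among the lines. BTG2 lay between -0.045 in HT1197 and 1.14 in T24 (adjusted p = 9.04e-15). GADD45A lay between -0.61 in VMCUB and 1.03 in SW780 (adjusted p = 2.83e-13). GDF15 lay between -0.95 in SW780 and 1.32 in 639V (adjusted p = 4.22e-12). FAS lay between -0.32 in VMCUB and 0.91 in KU1919 (adjusted p = 8.47e-11). PERP lay between -0.57 in VMCUB and 0.23 in T24 (adjusted p = 1.19e-09). SPATA18 lay between -0.22 in SW780 and 1.74 in HT1376 (adjusted p = 1.41e-08). MDM2 lay between -0.49 in SW780 and 0.48 in KU1919 (adjusted p = 1.49e-08). PMAIP1 lay between -0.39 in HT1376 and 0.61 in 639V (adjusted p = 1.64e-08). Further down stood DDB2 (adjusted p = 6.71e-08), PLK3 (adjusted p = 8.72e-08), PLK2 (adjusted p = 1.05e-07), RRM2B (adjusted p = 1.04e-06), TP53INP1 (adjusted p = 1.3e-06), BBC3 (adjusted p = 2.75e-06) and AEN (adjusted p = 1.24e-05). Next came SESN1 (adjusted p = 3.87e-05), TP53I3 (adjusted p = 4.11e-05), CCNG1 (adjusted p = 0.000114), PHLDA3 (adjusted p = 0.000159), FDXR (adjusted p = 0.000169), TNFRSF10A (adjusted p = 0.000191) and BAX (adjusted p = 0.000235). The least firm were PPM1D (adjusted p = 0.000288), TIGAR (adjusted p = 0.000402), ZMAT3 (adjusted p = 0.000881), XPC (adjusted p = 0.00255), TRIAP1 (adjusted p = 0.0135), TNFRSF10B (adjusted p = 0.0259) and APAF1 (adjusted p = 0.0467).

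PMAIP1, GDF15, DDB2, GADD45A and PHLDA3 passed and kept opposite calls in different lines when each library was left out. MDM2 and FAS lost their only call in one direction, MDM2 in KU1919 and FAS in VMCUB, in some of those fits. Leaving out the libraries of replicate 1, 2 or 3 left 24 to 27 members past the same threshold, beside 40.6% to 51.3% of all genes. Leaving out 1 line at a time left 26 to 29, beside 46.1% to 65.5% of all genes.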

How the results depend on the processing

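Of the 93 calls of a member in a line, 51 held under every alternative run and 42 were lost under at least 1. For each change below, the cause was not tested. Direction turned for 1 value, FDXR in SW780, at 0.082 on the log2 scale with library totals. One fit of all 48 libraries gave 1 member higher and 0 lower in HT1197 (6.38% of all genes in either direction). The same fit gave 14 and 4 in KU1919 (13.1% and 10.1% of all genes) and 6 and 4 in T24 (14% and 7.99%). In VMCUB that fit gave 1 and 12 (17.7% and 19.6%), and 4 were lower in 639V (6.9%) and in TCCSUP (16.2%). Library totals gave 1 lower in HT1197 (4.4% of all genes), 11 higher in KU1919 (10.9%), 14 higher in SW780 (50.3%) and 3 higher in VMCUB (21%). With no filter on low counts, 5 were lower in HT1197 (5.44% of all genes) and 1 higher in VMCUB (9.74%). DESeq2 called 2 lower in T24 (2.78%). Leaving out 1 library at a time gave 1 to 3 members higher and 1 to 4 lower in HT1197 (8.84% to 10.5% and 4.45% to 7.16% of all genes). It gave 4 to 9 and 5 to 8 in HT1376 (20.1% to 24.2% and 9.58% to 19.1%), 3 to 16 and 0 to 6 in KU1919 (5.21% to 18.4% and 0.686% to 14.3%), and 8 and 10 to 13 in SW780 (28.3% to 29.2% and 28.1% to 29%). In T24 it gave 2 to 3 higher and 0 to 1 lower (5.73% to 10.6% and 0.196% to 1.19%), and in 639V 8 to 9 and 6 to 9 (18.7% to 22.1% and 13.2% to 19%). In TCCSUP it gave 6 to 7 and 6 to 9 (22.3% to 25.3% and 18.1% to 24.2%), and in VMCUB 0 to 1 and 2 to 12 (9.37% to 24% and 1.89% to 24.4%). A group left with 2 libraries was assumed to vary like the other.

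In the fit shared by lines, the number higher was 0 in edgeR (7.31% of all genes), 1 with library totals (9.4%) and 2 with DESeq2 (13.1%). It was 7 with all 48 libraries unsummed (27.5%), which counts libraries of 1 line as independent. The number lower was 1 in edgeR (4.41%), 0 with no filter (1.21%), 0 with library totals (0.607%), 4 with DESeq2 (12.1%) and 8 unsummed (22.7%). Leaving out a line gave 0 to 2 lower: 0 without HT1197, HT1376, T24, 639V or TCCSUP (0.588% to 2.14%) and 2 without KU1919 (4.08%). Sums without replicate 1, 2 or 3 gave 0 higher and 0 lower (4.88% to 7.18% and 1.31% to 3.94%). The DMSO difference between lines held for all 30 members under every alternative (63% to 97.8% of all genes). HT1197 was highest for 17 to 18 members without replicate 1, 2 or 3, for 14 with library totals and for 18 with RLE size factors, alternatives chosen after seeing the data.

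Same-numbered CPI-0209 and DMSO libraries did not deviate together: 0 of 8 lines had all 3 correlations over 0.1 (range -0.622 to 0.3), and in 0 lines did every library correlate best with its own number. A replicate block gave 2 members higher in HT1197 (10.6% of all genes), 1 higher and 0 lower in T24 (6.58% and 0.168%) and 4 lower in VMCUB (7.53%). It gave 27 members for the difference between lines (48.6% of all genes). The libraries hold enough counts that depth limited mainly SPATA18, which had 2, 0 and 3 counts in the DMSO libraries of 639V.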

Other observations

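CCND2, the gene of cyclin D2, ends 2413 bases before TIGAR starts on chromosome 12 (same strand), and was singled out after its values were seen. In 639V, CCND2 averaged 159.7 ± 5.03 CPM with CPI-0209, against 41.8 ± 1.3002 CPM with DMSO (SD, n = 3 each). In HT1376 it averaged 21.1 ± 0.765 CPM with CPI-0209, against 2.21 ± 0.404 CPM with DMSO. TIGAR was lower with CPI-0209 in 639V (log2 fold change -0.57) and differed by 0.0051 on the log2 scale in HT1376 (adjusted p = 0.974). In KU1919, TIGAR differed by 0.40 (adjusted p = 0.0504) on the log2 scale, and CCND2 averaged 2.62 ± 0.1404 CPM with CPI-0209, against 0.0222 ± 0.0219 CPM with DMSO. In TCCSUP, where CCND2 was too low for a test, TIGAR was called lower (-0.26). TIGAR had no call in HT1197 (-0.0093), SW780 (-0.092), T24 (-0.17) and VMCUB (-0.14). CCND2 was also called higher in HT1197, KU1919, SW780 and T24, and was too low for a test in VMCUB too.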
